A study of Mus musculus with 11 samples.

Results

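A group of 5 unconventional myosins and 1 myosin adaptor of the hair cell was followed through the floor of the developing mouse cochlear duct: Myo6, Myo3a, Myo3b, Myo1c, Myo10 and Gipc3. These 6 genes were listed by symbol, with no threshold on their measured values but with earlier results of these data known, and are 6 of the 24898 genes with a row in at least 1 of the 4 deposited expression tables. Rows for all 6 were used from E16 onward; at E14, Myo3a and Gipc3 were not analysed. The cells came from wildtype CD1 mice at embryonic days 14 and 16 (E14, E16) and postnatal days 1 and 7 (P1, P7), with no transgene or treatment, and were captured as single cells from cochlear epithelium freed with thermolysin. The study's methods describe each library as a separate collection of cochleae pooled from several animals of either sex. E14 had 2 libraries, E16 had 3, P1 had 4 and P7 had 2, with 5253, 7961, 14043 and 3377 cells, and medians per library of 2478 to 5648 transcripts per cell (unique molecular identifiers, UMIs).

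An unconventional myosin is a motor that walks along actin filaments carrying a cargo. The hair bundle, the sensory organelle of the hair cell, is built from actin-filled stereocilia, and different myosins occupy different places in it. MYO6 walks toward the minus end of actin, toward the cell body, and is needed to hold the stereocilium's membrane down at its base; GIPC3 is a PDZ-domain protein that binds MYO6. MYO3A and MYO3B carry a kinase domain and travel to stereocilia tips with the actin bundlers ESPN and ESPNL. MYO1C is a short-tailed motor long studied as a candidate for slow adaptation of mechanotransduction, and MYO10 is best known as the motor of filopodial tips. Human MYO6, MYO3A and GIPC3 are deafness genes.

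On GRCm38, Myo6 lies at chr9:80165031-80311729 on the plus strand, Myo3a at chr2:22227503-22618252 (plus), Myo3b at chr2:70039126-70429198 (plus), Myo1c at chr11:75650504-75673910 (plus), Myo10 at chr15:25622525-25813673 (plus) and Gipc3 at chr10:81335265-81343266 (minus). Of these, 4 overlap other annotated genes: Myo6 the antisense Gm27227, Myo3b the same-strand transcript Gm13631, Myo10 the same-strand Gm48996 and Gm2862, and Myo3a 4 pseudogenes on the opposite strand. RefSeq promoters (GRCm38.p6, 250 bases before to 50 after a start) were found for all 6 genes, 9 windows in all. The 4 windows shown were chosen because they belong to the genes that passed the test of hair cells against other cells at P1. They run 5′ to 3′ on the gene's strand, and capitals mark the GC box GGGCGG on either strand.

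Myo6 (chr9:80164784-80165083, plus): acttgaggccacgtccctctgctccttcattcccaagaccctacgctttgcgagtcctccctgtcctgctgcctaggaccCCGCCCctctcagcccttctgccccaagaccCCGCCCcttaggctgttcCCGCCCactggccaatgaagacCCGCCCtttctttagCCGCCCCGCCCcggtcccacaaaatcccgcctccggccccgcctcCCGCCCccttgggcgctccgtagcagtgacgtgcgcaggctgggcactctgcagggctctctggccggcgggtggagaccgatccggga

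Gipc3 (chr10:81343310-81343609, minus): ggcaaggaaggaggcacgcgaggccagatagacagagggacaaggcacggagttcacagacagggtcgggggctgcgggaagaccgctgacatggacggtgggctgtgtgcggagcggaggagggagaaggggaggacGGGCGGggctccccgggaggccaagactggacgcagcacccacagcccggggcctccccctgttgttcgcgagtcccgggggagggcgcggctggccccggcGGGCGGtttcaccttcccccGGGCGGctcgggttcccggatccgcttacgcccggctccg

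Myo3a (chr2:22227253-22227552, plus): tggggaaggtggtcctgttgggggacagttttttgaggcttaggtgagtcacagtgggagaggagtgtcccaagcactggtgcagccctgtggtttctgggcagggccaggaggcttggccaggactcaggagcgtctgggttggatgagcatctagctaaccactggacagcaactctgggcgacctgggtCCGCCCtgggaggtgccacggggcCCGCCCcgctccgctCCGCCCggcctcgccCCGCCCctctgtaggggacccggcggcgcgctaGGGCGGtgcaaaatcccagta

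Myo10 (chr15:25622300-25622599, plus): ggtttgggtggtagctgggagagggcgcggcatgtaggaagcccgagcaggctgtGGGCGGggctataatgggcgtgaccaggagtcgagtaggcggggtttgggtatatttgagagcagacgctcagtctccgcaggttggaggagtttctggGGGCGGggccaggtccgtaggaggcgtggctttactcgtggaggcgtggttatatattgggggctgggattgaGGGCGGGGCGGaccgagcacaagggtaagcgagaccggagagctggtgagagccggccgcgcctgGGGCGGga

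The window of Myo6 held 7 GC boxes (2 of them overlapping), that of Gipc3 3, that of Myo3a 5 and the Myo10 window 5 (again with 2 overlapping), while 35.9% of 32544 distinct promoter windows held at least 1. GC content was 68.3% for Myo6, 72.3% for Gipc3, 66.3% for Myo3a and 64.7% for Myo10, against a median of 53% over all windows. None of these 4 windows, nor that of Myo3b, held the letters CANNTG (an E-box, the core motif of basic helix-loop-helix factors), which 72.3% of all windows held; this says only that those letters are not in these 300 bases. TATAAA was also absent from the 4 windows, and 13.6% of all windows held it. Myo10 has another RefSeq window (chr15:25752956-25753255), which differs from the one shown: it held no GC box and 1 TATAAA, at 48% GC. Promoter use was not measured, since the libraries read the 3′ ends of transcripts.

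Hair cells were gated as cells with at least 4 of 15 marker genes after each cell was thinned to 1500 UMIs, and other cells as those with at most 1; no member is a marker. The markers included the transcription factors Pou4f3, Atoh1 and Gfi1 and the transduction-channel subunit Lhfpl5. From E14 to P7 the gate held 46, 590, 1059 and 263 hair cells, with medians of 6, 8.5, 10 and 7 markers per cell, and all 15 markers had UMIs at each age. Other cells numbered 5162, 7265, 12660 and 3066, with a median of 0 hair cell markers. The 45, 105, 324 and 48 cells with 2 or 3 markers were left out. Among hair cells, 13% at P1, 13.6% at E16, 19.6% at E14 and 20.9% at P7 also held 2 or more markers of another gated group, and results without them are given where they differ. Group names below stand for these gates. Levels are mean CPM (UMIs of a gene scaled to a fixed total for every cell) over the cells of a group in a library; since 3′ tags are not divided by transcript length, levels of different genes are not compared.

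Myo6 stood far higher in hair cells than in other cells at every age. Its hair cell level was 344 and 264 CPM in the 2 libraries of E14, then 777, 846 and 804 CPM in those of E16. Postnatally it was 1008, 1179, 1069 and 1207 CPM in the P1 libraries, with 1018 and 1119 CPM in the P7 ones. In other cells it never exceeded 62.6 CPM in any of the 11 libraries. The log2 difference, on the scale log2(mean CPM + 10) used for all differences here, was 2.99 ± 0.32 (SE) at E14 (limma, adjusted p = 2.8e-18), 4.02 ± 0.12 at E16 (adjusted p = 1.5e-14), 4.52 ± 0.09 at P1 (adjusted p = 5.7e-10) and 4.02 ± 0.16 at P7 (adjusted p = 4.7e-14). With 2 libraries at E14 and at P7, the spread in those fits was drawn largely from other genes, not measured on Myo6. The same holds for the other members in comparisons within either of those ages. The sizes of the adjusted p-values are therefore not compared between ages. In summed UMIs the ratio was 27.5 at P1, with a 95% exact interval of 26.3 to 28.8 that covers counting error only. These calls are read against a wide background, because 4.18% of all genes tested were called higher in E14 hair cells, 19.7% in those of E16, 40.4% in those of P1 and 35.5% in those of P7.

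Gipc3, the MYO6 partner, was almost confined to the hair cell gate in these libraries. The E16 hair cell levels were 39.0, 45.1 and 24.0 CPM. Those of P1 were 116, 228, 188 and 164 CPM, while the P7 libraries gave 156 and 295 CPM. In other cells the highest library stood at 0.404 CPM. That gap gave log2 differences of 2.16 ± 0.22 at E16 (adjusted p = 3.3e-07), 4.13 ± 0.15 at P1 (adjusted p = 1.5e-08) and 4.48 ± 0.22 at P7 (adjusted p = 9.3e-13). At P1 the hair cells held 1201 Gipc3 UMIs and the other cells 17, a ratio of summed CPM of 612 with a counting interval of 381 to 1055. The 2 P7 libraries lay apart, and the P7 difference was 4.92 without replicate 4 and 4.03 without replicate 5, values with no test because a single library remained. The P7 standard error of 0.22 was drawn largely from other genes. It and the P7 p-value therefore do not measure the spread of Gipc3 between these libraries.

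Myo3a UMIs also lay almost wholly in the hair cell gate. E16 hair cells stood at 47.6, 36.5 and 38.8 CPM. P1 hair cells stood at 24.6, 21.6, 33.9 and 30.1 CPM, and P7 ones at 13.2 and 17.5 CPM. In other cells, Myo3a had 2 UMIs in all of E16, 3 in P1 and 0 in P7. The log2 difference was 2.32 ± 0.21 at E16 (adjusted p = 7.2e-08) and 1.89 ± 0.13 at P1 (adjusted p = 9.3e-07). Like Gipc3, Myo3a passed the filter through its hair cell level alone, so these tests could only place it higher there. At P7 Myo3a was below the filter of a mean of 10 CPM over the profiles compared. Set against an assumed 3 UMIs in the other cells as a whole, its P7 level in summed UMIs was 73.9-fold higher in hair cells. That ratio leaves out the counting error of the 28 hair cell UMIs. In the fit with no filter on low values, the P7 log2 difference was 1.34 ± 0.25 (adjusted p = 4.2e-05).

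Myo3b, the paralog of Myo3a, gave few UMIs. No Myo3b UMI was seen in the 46 E14 hair cells, where 3 UMIs would have been 10.5 CPM. Its levels were 3.70, 7.76 and 7.04 CPM in E16 hair cells, 16.5, 23.2, 11.3 and 10.0 CPM in P1 ones, and 3.27 and 3.77 CPM in P7 ones. Each library stood above its own other cells (at most 0.998 CPM). Myo3b missed the filter in all 4 comparisons; in the fit with no filter on low values, its log2 difference was 0.62 ± 0.13 at E16 (adjusted p = 0.019), 1.23 ± 0.15 at P1 (adjusted p = 0.0014) and 0.37 ± 0.11 at P7 (adjusted p = 0.0087). In summed UMIs the P1 ratio was 24.8 (counting interval 16.8 to 37.3), from 103 UMIs in hair cells and 36 in other cells.

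Myo10 moved the other way. Hair cell levels at P1 were 8.04, 15, 6.24 and 14.5 CPM, and those of other cells in the same libraries were 15.6, 24.4, 35.5 and 41.2, each above its own hair cells. The difference was -0.88 ± 0.18 at P1 (adjusted p = 0.0014), -0.61 ± 0.21 at E16 (11.2 against 21.6 CPM, adjusted p = 0.028) and -0.56 ± 0.23 at P7 (10.6 against 20.4 CPM, adjusted p = 0.039), with 28.9%, 20.2% and 28.8% of all genes tested called lower. The E16 and P7 calls are not firm: without E16 replicate 3 the adjusted p was 0.19, without E16 replicate 2 it was 0.075, and without the mixed hair cells at P7 it was 0.060. At E14 the 2 hair cell libraries stood at 0 and 37.4 CPM and disagreed in direction, with a difference of -0.61 ± 0.56 (adjusted p = 0.62) where 5.59% of genes were called lower.

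Myo1c was low throughout and missed the filter in every comparison. Hair cells averaged 3.58 ± 1.01 CPM (SD, n = 3) at E16, 4.18 ± 3.61 (n = 4) at P1 and 4.67 ± 1.17 (n = 2) at P7, and other cells 3.55 ± 0.54, 5.04 ± 1.91 and 5.09 ± 2.75. With no filter the P1 difference was -0.11 (95% interval -0.41 to 0.19, adjusted p = 0.53), while in summed UMIs the P1 ratio was 0.571 (counting interval 0.357 to 0.871). The E14 hair cells held no Myo1c UMI, against a mean of 4.68 CPM in other cells, and with no filter the fitted E14 difference was -0.55 (interval -0.84 to -0.26, adjusted p = 0.013). That fitted value depends on the 10 CPM added before taking logs, and 3 UMIs in those 46 cells would have been 10.5 CPM, so a count of 0 there allows a level above that of the other cells. Of the 6 members, then, Myo10 and Myo1c passed no test as higher in hair cells, although both are listed as hair cell myosins.

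**Figure D1:**
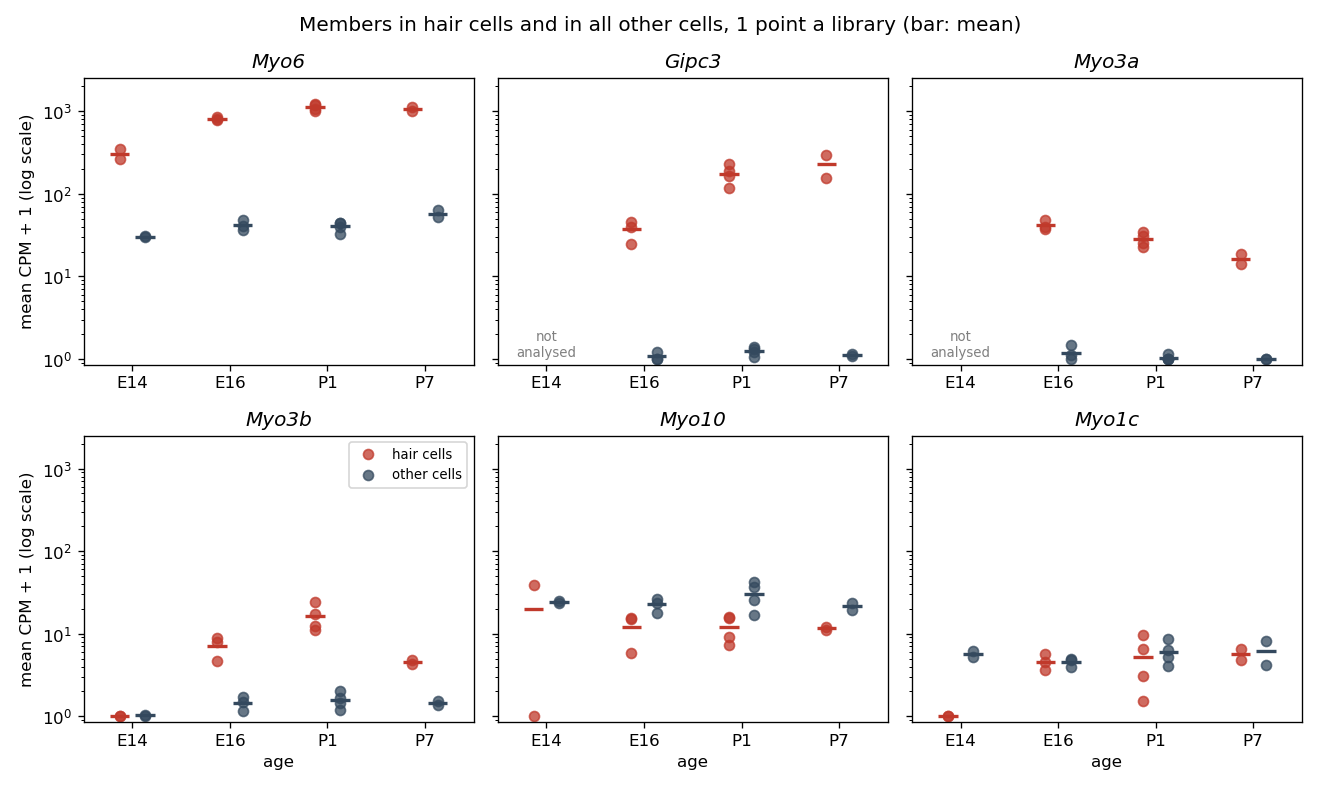
Mean CPM + 1 on a log axis for each member by age, with 1 point for each library (red, hair cells; dark, other cells) and a bar at the mean. Myo6 hair cell points lie between 264 and 1207 CPM with other cells at or below 62.6 CPM, Gipc3, Myo3a and Myo3b lie near 0 outside hair cells, and Myo10 in P1 other cells reaches 41.2 CPM.

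How many cells carried a transcript was counted after thinning every cell to 1500 UMIs. At P1, 77.1% of hair cells held a Myo6 UMI (817 of 1059, exact 95% interval 74.5% to 79.6%), 20.8% a Gipc3 UMI (18.4% to 23.3%), 3.49% a Myo3a UMI (2.47% to 4.78%), 1.23% a Myo3b UMI, 1.42% a Myo10 UMI and 0.661% a Myo1c UMI. With all UMIs kept, the shares were 98.0%, 59.3%, 16.0%, 7.74%, 6.52% and 1.98%, so a cell without a UMI is no evidence of a cell without the gene. The medial duct floor (the greater ridge, gated by Tecta, Epyc and others), taken as a group that should lack hair bundle genes, gave 5.66% for Myo6 (4.63% to 6.84%), 0.0561% for Gipc3 (1 of 1784 cells), 0 of 1784 for Myo3a and Myo3b (exact upper limit 0.207%; 3 cells would be 0.168%), and 3.81% for Myo10. Median depth was 6694 UMIs in hair cells and 4858 in the medial duct floor. The Myo10 share in hair cells lay below that of the medial duct floor, and the Myo1c shares (0.661% and 0.729%) were alike within their intervals.

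**Figure D2:**
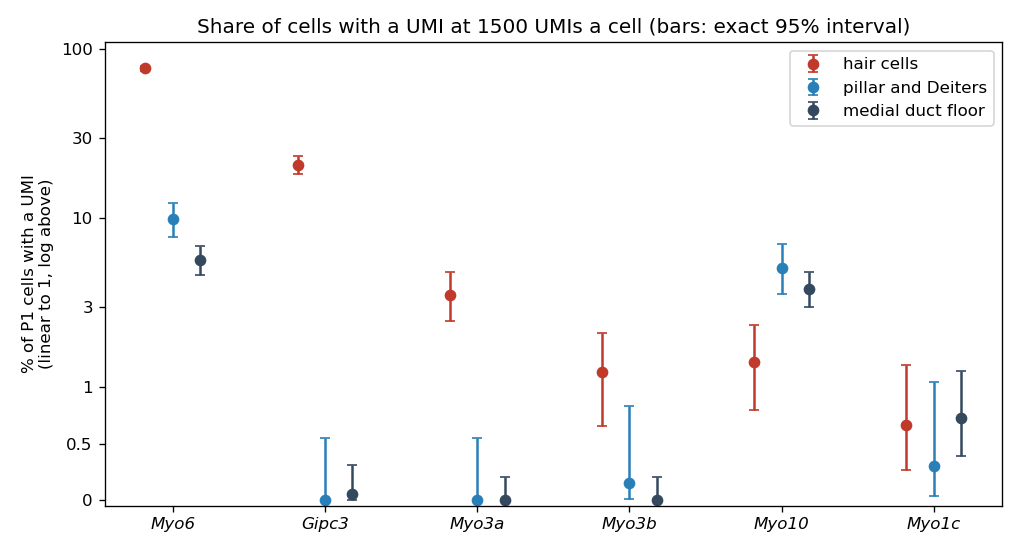
Percent of P1 cells with at least 1 UMI of each member after thinning to 1500 UMIs, on an axis that is linear to 1 and logarithmic above, for hair cells, pillar and Deiters cells and the medial duct floor; bars are exact 95% intervals. Myo6 stands at 77.1%, 9.87% and 5.66% in the 3 groups, and Gipc3 at 20.8%, 0% and 0.0561%.

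Outside hair cells Myo6 and Gipc3 parted. In other cells the Myo6 level was 3.0% to 3.86% of the hair cell level over the 4 P1 libraries, and the Gipc3 level 0.0377% to 0.247%. There were 6.71 Myo6 UMIs for each Gipc3 UMI in P1 hair cells and 149 in other cells (2537 and 17 UMIs). At P7 the same counts were 4.46 in hair cells and 449 in other cells, the last from 2 Gipc3 UMIs. Background RNA in the droplets was not measured, and its part in these values was not tested.

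Within the P1 duct floor, pillar and Deiters cells had the highest mean Myo6 of the groups gated outside hair cells. Inner phalangeal cells had no gate. Pillar and Deiters cells (gated by Fgfr3, Prox1, Hes5 and others) averaged 80.8, 72.7, 70.0 and 66.1 CPM in the 4 libraries, against a mean of 37.6 in all other cells outside hair cells, a difference of 0.80 ± 0.12 (adjusted p = 3.5e-04), higher in 4 of 4 libraries, where 21.9% of genes were called higher. Interdental cells, which secrete tectorial membrane components at the medial edge, stood lower at 28.8 against 40.0 CPM (difference -0.37 ± 0.11, adjusted p = 0.024, lower in 4 of 4 libraries, 15.8% of genes called lower), but this call was lost without P1 replicate 2, 3 or 4 (adjusted p = 0.055, 0.086 and 0.10). For the medial duct floor (difference 0.16, interval -0.05 to 0.36, adjusted p = 0.33, 15.2% of genes called) and the lateral duct floor (0.31, interval -0.10 to 0.73, adjusted p = 0.34, 16.4% called) Myo6 did not pass the test. P1 other cells held a median of 4 of the 8 medial markers. The rest in the medial test thus included many cells like the gated ones, and that test cannot place a gene there. The P1 Myo6 share in pillar and Deiters cells, 9.87% (7.71% to 12.4%), exceeded that of the medial duct floor. Its interval overlapped those of the lateral duct floor, 7.98% (5.01% to 11.9%), and of roof cells, 11.8% (3.30% to 27.5%). The P7 shares were 6.59% (2.46% to 13.8%) in pillar and Deiters cells and 11.1% (4.92% to 20.7%) in the lateral duct floor. By level, the highest lateral duct floor library at P1 stood at 68.1 CPM, within the pillar and Deiters range. At P7 the means were close, with 70.6 CPM in pillar and Deiters cells, 68.3 in the lateral duct floor and 67.5 in mesenchyme. These groups were not tested against each other.

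Myo10 was spread over the duct floor. At P1 it averaged 36.4 CPM in pillar and Deiters cells, 26.0 in the medial duct floor, 24.3 in interdental cells and 19.9 in the lateral duct floor, and none of these 4 groups passed the test against the rest outside hair cells (adjusted p from 0.20 to 0.53). The limit of the medial test given above holds here too. Pillar and Deiters cells at P7 stood at 52.7 and 75 CPM, with 18.1 and 22.7 in the whole other-cell gate of those libraries, which includes them. These values were not tested. Myo1c reached its highest group mean in roof cells (gated by Oc90, Otx2 and others) at P1, 41.4 and 22.8 CPM in 2 libraries with 32 cells and 5 UMIs in all, and averaged 9.38 ± 4.23 CPM (SD, n = 4) in interdental cells, where the difference from the rest was 0.38 with no filter (interval -0.08 to 0.84, adjusted p = 0.29). Gipc3 and Myo3a were not seen in interdental or roof cells at E16 or P1, nor in glia or mesenchyme at P7.

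**Figure D3:**
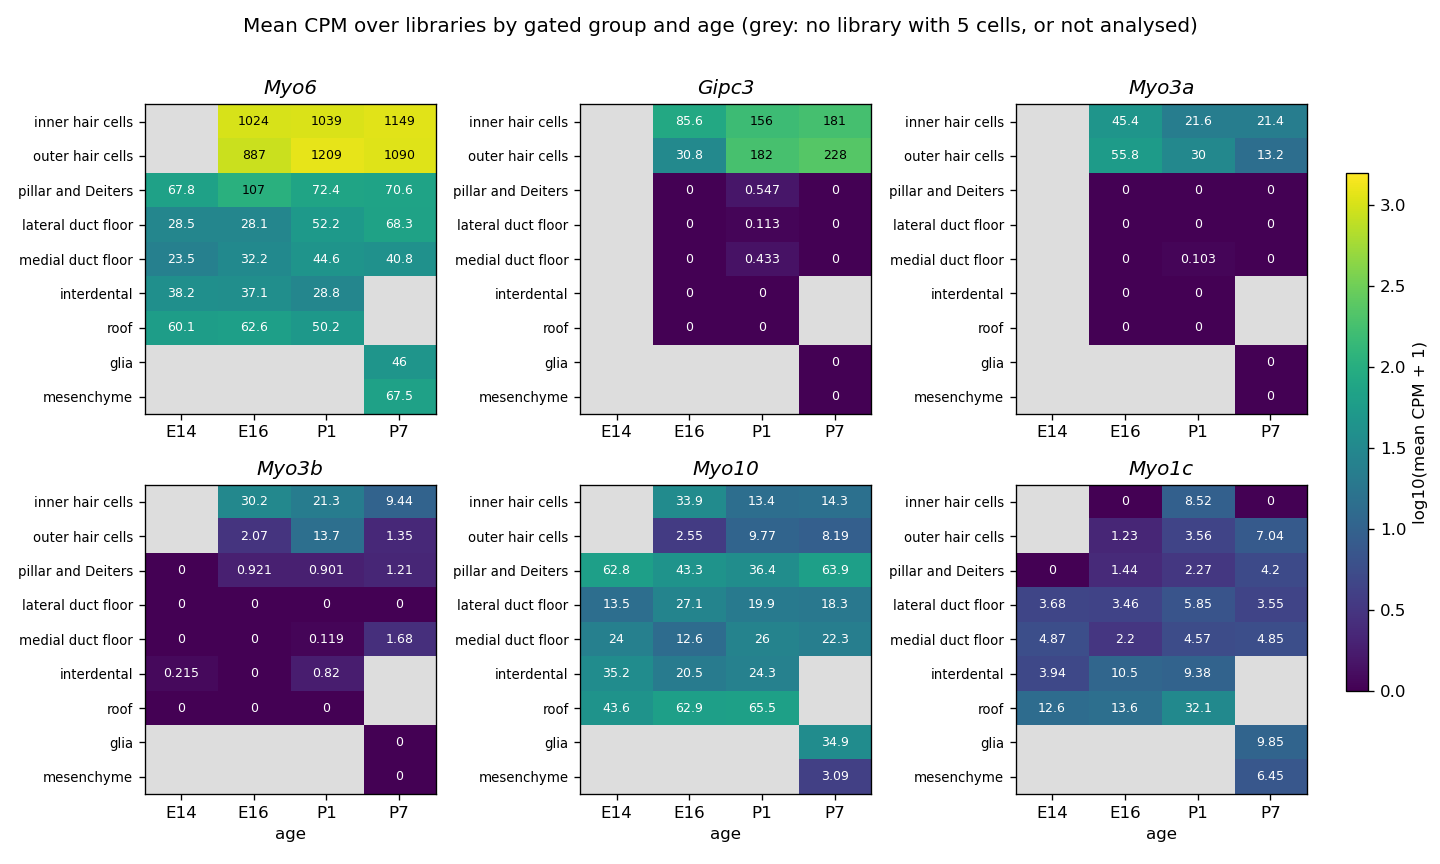
Mean CPM over libraries for each member (panel), gated group (row) and age (column), coloured by log10(mean CPM + 1), with the mean printed in each tile and grey where no library held 5 cells of the group or the gene was not analysed. In the rows other than the hair cell ones, which leave out cells of no named group, Gipc3 is at most 0.547 CPM and Myo3a at most 0.103 CPM, Myo6 is at 72.4 CPM in P1 pillar and Deiters cells, and Myo10 is at 63.9 CPM in those cells at P7.

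Inner hair cells, the main afferent receptors, were compared with outer hair cells, the electromotile amplifiers, within each library. Inner hair cells were gated by markers such as Fgf8, Tbx2 and Slc17a8, and outer hair cells by Insm1, Bcl11b, Ikzf2 and Slc26a5 among others. There were 146 inner and 538 outer hair cells at P1, 29 and 159 at E16 and 85 and 140 at P7. No member above the filter passed the test at any of the 3 ages, where 0.603% of all genes were called at E16, 9.88% at P1 and 10.6% at P7. Myo1c was below the filter at each of these ages, and Myo3b was below it at P7. At P1 Myo6 was 826, 1072, 1007 and 1253 CPM in inner hair cells and 1140, 1283, 1147 and 1266 CPM in outer hair cells, lower in the inner cells of 4 of 4 libraries (difference -0.23 ± 0.08, interval -0.40 to -0.07, adjusted p = 0.070). At the other ages the means ran the other way, with 1024 CPM in inner and 887 in outer hair cells at E16 (0.19, interval -0.22 to 0.60, adjusted p = 0.90) and 1149 and 1090 CPM at P7 (0.07, interval -0.19 to 0.33, adjusted p = 0.83). Without the mixed hair cells the P1 value was -0.28 (adjusted p = 0.030), and without P1 replicate 4 it was -0.30 (adjusted p = 0.043).

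For the other members the inner-outer difference was less well bounded. Gipc3 at P1 differed by -0.21 (interval -0.53 to 0.10, adjusted p = 0.47), with 156 CPM in inner and 182 in outer hair cells. Myo3a differed by -0.39 (-0.96 to 0.18, adjusted p = 0.46), with 21.6 and 30 CPM. Myo3b ran the other way, at 15.7, 42.7, 19.1 and 7.79 CPM in inner and 14.7, 15.5, 10.5 and 13.9 in outer hair cells, a difference of 0.29 (-0.32 to 0.91, adjusted p = 0.64) that was positive in 3 of 4 libraries. At E16 Myo3b was 0, 54.1 and 36.5 CPM in inner hair cells, from 4 UMIs in 29 cells, and 0, 0 and 6.22 in outer hair cells (adjusted p = 0.76). These intervals leave room for differences of either sign, and the test gives no sign that inner and outer hair cells are alike.

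At P1, hair cells outside the inner gate were also split by the stage of their markers: early cells by Atoh1, Insm1, Neurod6, Hes6 and Dll1, late cells by Calb2, Atp2b2, Tmc1, Lmod3, Ocm and Strc. There were 276 early and 196 late cells, with median depths of 6563 and 6059 UMIs. Gipc3 was 61.9, 150, 157 and 139 CPM in early cells and 144, 388, 290 and 188 CPM in late cells, higher in the late cells of 4 of 4 libraries (difference 0.92 ± 0.18, adjusted p = 9.8e-04, with 5.74% of all genes called higher). Leaving out cells of more than 3000 genes gave 0.86 (adjusted p = 0.068), and a fit without the library block gave an adjusted p of 0.23 for the same difference. Myo3a was also higher in late cells in 4 of 4 libraries, at 12.1, 17.6, 22.7 and 15.5 CPM early and 33.2, 38.9, 59.8 and 55.4 late (1.06 ± 0.30, adjusted p = 0.020). That call is fragile, since the adjusted p was 0.055, 0.058 and 0.13 without P1 replicate 1, 3 or 4 and 0.73 with 1 more marker in each gate.

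None of the other 4 members passed this test. Myo6 averaged 1061 CPM in early and 1268 in late cells, higher in the late cells of 4 of 4 libraries (0.25 ± 0.09, adjusted p = 0.085; 0.29, adjusted p = 0.026, with gates set on unthinned cells). Myo3b differed by 0.21 (interval -0.56 to 0.97, adjusted p = 0.78) and Myo10 by -0.25 (-0.97 to 0.47, adjusted p = 0.71). Myo1c was 5.70 CPM in early cells (12 UMIs) and 0.637 in late cells (1 UMI), with a difference of -0.55 in the fit with no filter (adjusted p = 0.17).

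**Figure D4:**
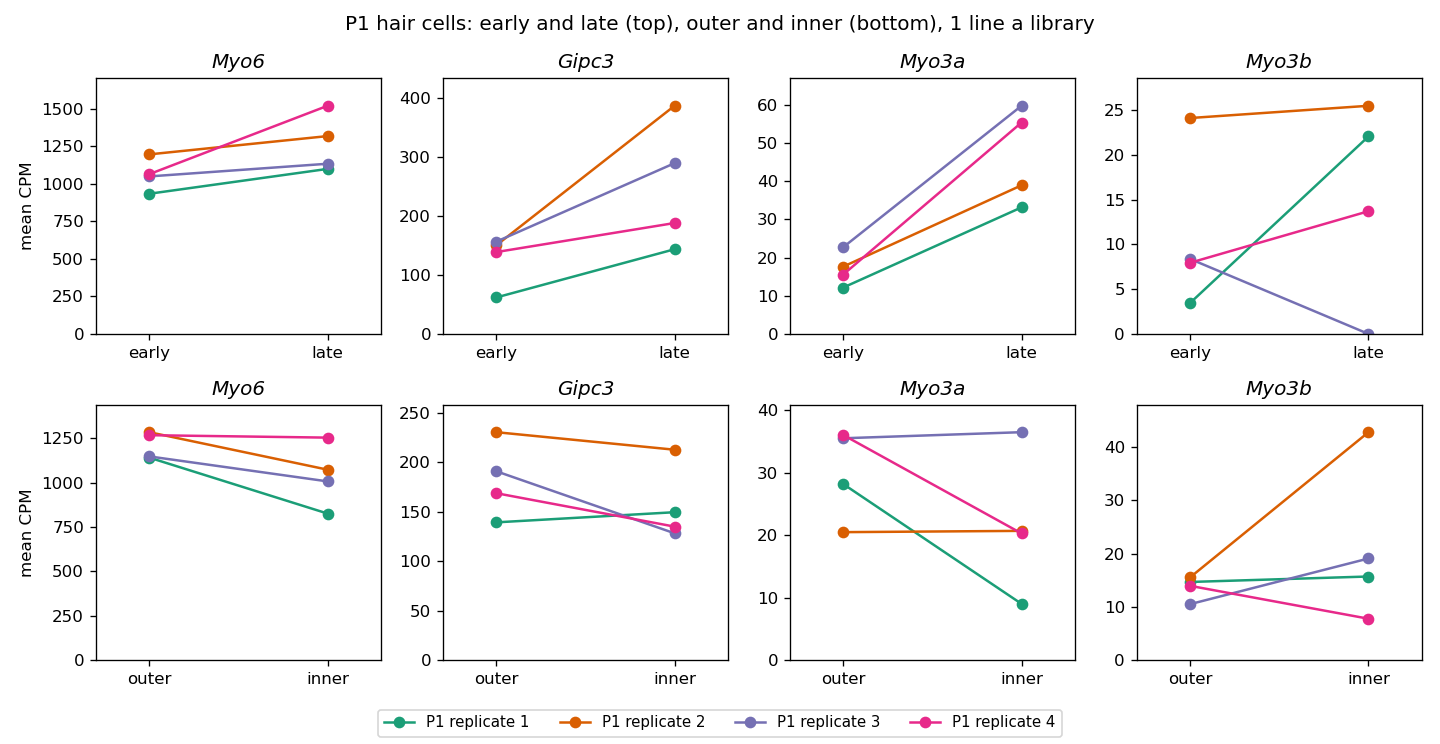
Mean CPM in P1 early and late hair cells (top) and in outer and inner hair cells (bottom) for Myo6, Gipc3, Myo3a and Myo3b, with 1 line for each of the 4 libraries and axes that start at 0. Gipc3 and Myo3a lines all rise from early to late (Gipc3 to between 144 and 388 CPM), and every Myo6 line lies lower in inner than in outer hair cells, a difference that did not pass the test.

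Across ages, age cannot be told apart from collection, because each library holds 1 age. In hair cells Myo6 was higher at E16 than at E14 (809 against 304 CPM, difference 1.39 ± 0.22, adjusted p = 6.5e-04, 8.53% of genes called higher). The makeup of the gate differed between these ages, since 22 of 46 E14 hair cells but 56 of 590 at E16 held only 4 or 5 markers. In that class Myo6 stood at 163 CPM at E14 and 456 CPM at E16, and among cells with 6 to 8 markers at 468 and 755 CPM. The part of the gate in this difference was not tested. From E16 to P1 Myo6 went from 809 to 1116 CPM, a step that did not pass the test (0.46 ± 0.19, adjusted p = 0.12), and P7 stood at 1069 CPM (difference from P1 -0.06, interval -0.50 to 0.38, adjusted p = 0.89). Gipc3 was higher at P1 than at E16, 174 against 36.0 CPM (1.99 ± 0.29, adjusted p = 1.4e-04), where 8.77% of genes were called higher. At P7 it was 156 and 295 CPM, the first library inside the range of the P1 libraries and the second above it (0.33 ± 0.33, adjusted p = 0.57), where 16.7% of genes were called in either direction.

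The myosin III pair and Myo10 gave no age call. Mean Myo3a in hair cells was 40.9 CPM at E16, 27.5 at P1 and 15.4 at P7. Neither step passed the test, with differences of -0.45 ± 0.27 (adjusted p = 0.31, with 5.04% of all genes called lower) and -0.56 ± 0.31 (adjusted p = 0.25, with 9.85% called lower). Myo3b was 6.16, 15.3 and 3.52 CPM at the same ages, and with no filter its fitted differences were 0.62 (adjusted p = 0.18) and -0.87 (adjusted p = 0.071). In order of its hair cell level, Myo3b therefore ran P1, E16, P7 with no neighbouring step past the test. Myo10 in hair cells stood at 18.7, 11.2, 11 and 10.6 CPM from E14 to P7 (adjusted p from 0.934 to 0.999 for the 3 steps). In other cells only Myo6 and Myo10 were above the filter, and neither passed the test at any step, with 7.19%, 13.4% and 21.7% of genes called. The nearest was Myo6 at P7 (56.7 against 39.3 CPM at P1, 0.44 ± 0.17, adjusted p = 0.090). The remaining members were below the filter in other cells, with Myo3a and Gipc3 not analysed at E14, so their steps there were not tested.

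Levels of Myo6 and Gipc3 were also set against the number of hair cell markers a P1 cell held, a description that shares cells with the gate. Myo6 averaged 39.8 CPM in cells with no marker, 41.4 with 2, 63.1 with 3, 409 with 4 or 5, 1071 with 6 to 8 and 1164 with 9 or more. Gipc3 averaged 21.5 CPM with 4 or 5 markers and 175 with 9 or more, while Myo3a stood at 26.8 and 28.5 CPM in those classes. Myo1c showed no such order (5.74 CPM with no marker and 4.26 with 9 or more), and Myo10 was lower with 9 or more markers (10.7 CPM) than with none (31.9 CPM). The lowest class of the gate (23 cells at P1) thus held less Myo6 and Gipc3 than the rest at that age. At P7 Gipc3 did not follow this order, with 245 CPM at 4 or 5 markers (25 cells), 249 at 6 to 8 and 162 at 9 or more.

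A list of 47 related genes (other myosins, light chains and calmodulins, and partners of MYO6, GIPC, MYO3 and MYO1C) gave the setting. In P1 hair cells 32 of the 47 were above the filter, and 18 were higher, 6 lower and 8 not called (40.4% and 28.9% of all genes tested were called higher and lower), with a median log2 difference of 0.40 against 0.12 over all genes tested. Myo7a, the motor of the upper tip-link region, was 206 against 0.859 CPM (4.30 ± 0.13), and Myo15, which carries elongation factors to stereocilia tips, 82.3 against 0.840 CPM (3.03 ± 0.16). The myosin III partners Espn and Espnl stood at 1117 against 49.3 CPM (4.26 ± 0.13) and 174 against 0.835 CPM (4.04 ± 0.16). Cdh23, the upper part of the tip link, differed by 3.12, the base protein Tprn by 2.27, Myo16 by 2.31 and the calmodulin-like gene Calml4 by 2.37. All these passed the test (adjusted p at most 1.6e-06). Myo7a, Myo15 and Espnl met the filter through their hair cell levels alone, which fixed the direction of their tests.

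Gipc1, the widely expressed paralog of Gipc3, stood at 161 CPM in hair cells and 174 in other cells (-0.12, interval -0.33 to 0.09, adjusted p = 0.28). Over the other ages the list gave 3 higher and 0 lower of 26 tested at E14, 16 and 6 of 33 at E16, and 21 and 8 of 33 at P7. Over all genes tested, the shares called higher and lower were 4.18% and 5.59% at E14, 19.7% and 20.2% at E16, and 35.5% and 28.8% at P7. Between inner and outer hair cells at P1, 3 of 32 were higher and 3 lower, where 9.88% of all genes were called in either direction.

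**Figure D5:**
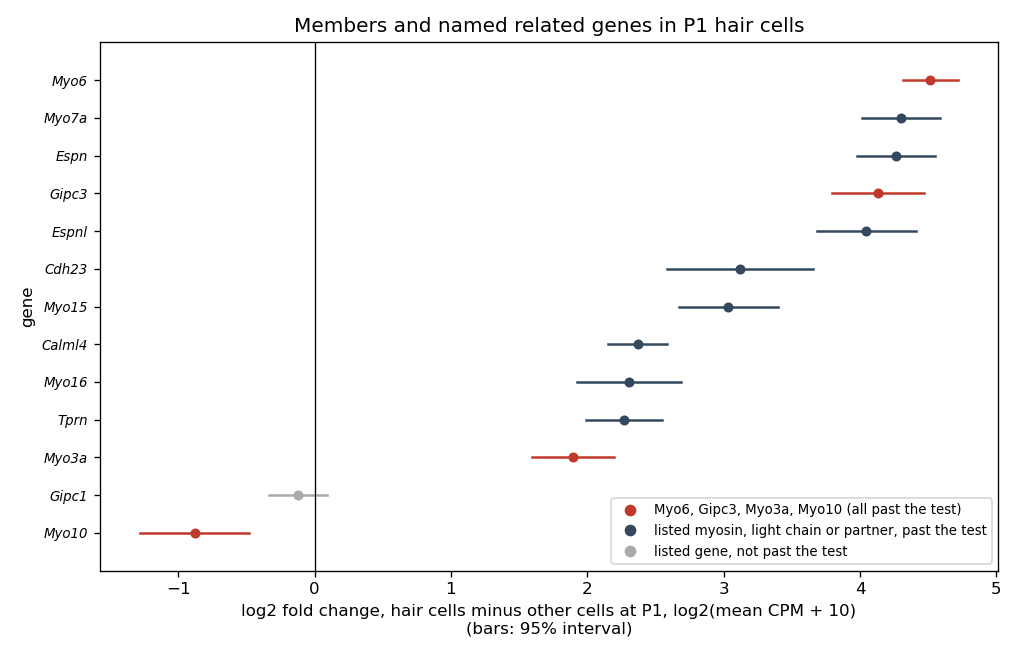
Log2 difference between hair cells and other cells at P1, on the log2(mean CPM + 10) scale with 95% intervals, for the 4 members above the filter (red) and the listed genes named in the text (dark, past the test; grey, not past it). Myo6 lies at 4.52, Myo7a at 4.30, Espn at 4.26, Gipc1 at -0.12 and Myo10 at -0.88; the added 10 CPM compresses the differences of scarce genes, so the order is not that of linear ratios (27.5 for Myo6 and 612 for Gipc3).

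Genes with the most similar profile over gated groups and ages were found by Pearson's r of log2(mean CPM + 10), leaving out all gate markers; the points share libraries and some share cells, so r is a description. For Gipc3, over 31 points, they included Tomt (r = 0.992), which is needed for mechanotransduction, and Tmcc2 (0.991). Myo6 lay nearest to Defb25 (0.978), Rundc3a (0.977) and Miat (0.975) over 39 points. For Myo3a they were Crmp1 (0.969), Gad2 (0.967) and Tcerg1l (0.967), and for Myo3b Tctex1d1 (0.964), Meig1 (0.964) and Dnajb13 (0.958). The nearest gene to Myo10 was BC064078 (0.782) and that to Myo1c Zfp36 (0.783), among 8041 genes compared.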

How the data were processed

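The authors made 3′ single-cell libraries (10x Chromium), aligned the reads to mm10 with Cell Ranger 2.1.1 and filtered and normalized cells in Seurat 2.0 (versions per the labels), and deposited 1 table for each age. The deposited values are the natural log of 1 plus 10000 times a gene's share of its cell's UMIs. They were back-transformed, and whole UMIs were recovered for 100% of values (within 2%). Libraries of the same age shared 11 (E14), 29 (E16), 84 (P1) and 9 (P7) cell barcodes; a cell of under 1500 UMIs (1 at E16) was left out of the gates.

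Cells were thinned to 1500 UMIs and gated on marker genes. Inner hair cells held at least 2 inner markers and outer hair cells at least 1 outer marker, each more than of the other kind. Early cells led by at least 2 early markers and late cells by at least 1 late marker. Groups outside hair cells held at least 3 of their markers, at least 2 above the library's median, and more above it than of any other group. These thresholds were set after the marker counts were seen. The members, markers and lists were chosen with earlier results of these data known. No doublet caller was run.

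CPM were averaged over the cells of a group in each library with at least 5 such cells. For each comparison, limma 3.58.1 in R 4.3.3 was run two-sided, with a mean trend, on log2(mean CPM + 10). Genes averaging under 10 CPM in the profiles compared were not tested, p-values were adjusted over every gene tested by Benjamini-Hochberg, and the threshold was 0.05. Library was a block within an age, and the 4 ages shared 1 fit across ages. The fit was also run on simulated data in which hair cells and other cells of a library shared 1 library effect. The simulated difference thus varied between libraries only through count noise. That run does not bear on a wider spread between libraries. Intervals of shares and counts are exact 95% intervals (scipy 1.17.1) and, like the floor of 3 UMIs, cover counting error only. The alternatives were a pseudocount of 1, no filter, stricter or unthinned gates, summed UMIs, leaving out cells over 3000 genes, mixed hair cells or a library, and the block.

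The text names the 6 members, up to 10 related genes with the largest P1 difference past the test, and for each member the 3 genes (at least 50 CPM in a group) of most similar profile; 3 genes that this rule names are not reported here, and Gipc1 was named after its values were seen. Positions come from GENCODE M21 and promoters from RefSeq.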

Additional observations from a re-analysis of the deposited data

Results flagged for a closer look

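In 55 combinations of a member and a gated group at P1, 6 held 1 library far from the other 3 (the gap to the nearest library over the whole range exceeded Dixon's 95% critical value). In each of the 6 the other 3 libraries stood at 0 and a handful of UMIs made the value. The rule always flags a group of that kind, and some of the groups share cells, so the count of 6 is not set against a chance rate. Myo1c was 34.1 CPM in the inner hair cells of P1 replicate 2, from 3 UMIs in 27 cells, and 2.55 CPM in the late hair cells of replicate 4. Gipc3 was 0.454 CPM in the lateral duct floor of replicate 1. Myo3a was 0.414 CPM in the medial duct floor and 0.138 CPM in all other cells of replicate 1. Myo3b was 0.477 CPM in the medial duct floor of replicate 2. The mean of Myo1c in P1 inner hair cells, 8.52 CPM, rests on replicate 2 alone.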

How the results depend on the processing

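Over the alternatives other than a left-out library, 421 member differences kept their side of the threshold, 16 lost the call and 2 gained it. None of the called ones reversed, and the direction of uncalled ones was not followed. Calls in hair cells against other cells held for Myo6, Gipc3 and Myo3a under every such alternative. Gipc3 and Myo3a passed the filter through their hair cell levels alone. In the settings that keep the filter their direction was thus fixed beforehand, and their held calls are no evidence for it. Gates of thinly sampled groups, 2 libraries at E14 and P7, and 3′ tags of rare transcripts (Myo1c, Myo3b) limit what could be detected; mixed cells stayed in the gates, and their part in the results was not tested beyond leaving them out.

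Myo10 lost its call in E16 hair cells with no filter (-0.61) or no library block (-0.61), and at P7 with no filter (-0.56), unthinned gates (-0.38), without cells over 3000 genes (-0.47) or without mixed hair cells (-0.57). Late against early Myo3a was lost with 1 more marker in each gate (0.65), summed UMIs (0.81), no filter (1.06) and no block (1.06), and Gipc3 without cells over 3000 genes (0.86) and with no block (0.92); Myo6 gained a call with unthinned gates (0.29). Interdental Myo6 was lost with unthinned gates (-0.26), no filter (-0.37), no block (-0.37) and without cells over 3000 genes (-0.35). Inner against outer Myo6 at P1 gained a call without mixed hair cells (-0.28). With no filter more genes were tested; the cause of the other changes was not tested.

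Leaving out each library in turn, the Myo10 difference ran from -1.70 to 0.48 at E14 and from -0.71 to -0.47 at E16, Gipc3 at P7 from 4.03 to 4.92, and inner against outer Gipc3 at P7 from -0.71 to 0.40 while Myo10 at P7 was 1.19 without replicate 5. Inner against outer Myo6 at P1 ran from -0.30 to -0.15, late against early Myo3a from 0.96 to 1.14, Myo6 in other cells at P7 against P1 from 0.31 to 0.57 (past the threshold without P1 replicate 4), and interdental Myo6 from -0.42 to -0.33. Counts of genes called ran from 17 to 44 (inner against outer, E16), 579 to 659 (P1), 724 to 884 (late against early), 707 to 1900 (hair cells, E16 against E14), 56 to 922 (other cells, E16 against E14), 697 to 1352 (hair cells, P1 against E16), 480 to 1806 (other cells, P1 against E16), 580 to 1520 (hair cells, P7 against P1), 777 to 2582 (other cells, P7 against P1) and 790 to 1015 (medial duct floor).

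Gene counts moved by over 1.5 times as follows. Hair cells against other cells called 858 genes at E14 and 3936 with no filter, 421 with a pseudocount of 1, 462 without cells over 3000 genes and 284 without the block; at E16, 3614 and 2409 without the block. Inner against outer hair cells called 52 at E16 (79 unthinned, 30 with a pseudocount of 1, 12 without the block), 877 at P1 (509 with no filter, 362 without cells over 3000 genes, 215 without the block) and 932 at P7 (621 and 368 for the last 2). Late against early called 1119 (317 with 1 more marker, 714 with no filter, 476 without cells over 3000 genes, 184 without the block). The medial duct floor called 1259 (531 with 1 more marker, 526 unthinned, 69 without the block), the lateral duct floor 1403 (924 with no filter, 511 without the block), interdental cells 2236 (593 without the block) and pillar and Deiters cells 3201 (1277 without the block). Other cells called 633 at E16 against E14 (956 with no filter) and 1907 at P7 against P1 (3098 with no filter).

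With all UMIs kept, the P1 shares of hair cells with a UMI were 98.0% (Myo6), 59.3% (Gipc3), 16.0% (Myo3a), 7.74% (Myo3b), 6.52% (Myo10) and 1.98% (Myo1c), and with unthinned gates the Myo6 share was 72.8%.

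Across ages the libraries share only a replicate number: the correlation of same-numbered deviations ranged from -0.126 to 0.074 over 8 pairs of hair cell profiles, and from -0.279 to 0.126 in other cells. With that number as a replicate block, hair cells at P7 against P1 called 324 genes (1520 without), other cells 962 at E16 against E14 (633) and 1121 at P7 against P1 (1907), and Myo6 at E16 against E14 differed by 1.40 and Gipc3 at P1 against E16 by 2.01; no member's call changed with this block.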
